A study of Mus musculus with 6 samples.

Results

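Paneth cells (PCs) sense microbes through a small set of germline-encoded sensors, and 10 of these genes were followed here in sorted PCs: the Toll-like receptors Tlr1, Tlr2, Tlr3, Tlr4 and Tlr5, the lipopolysaccharide co-receptors Ly96 (the gene of MD-2) and Cd14, the adaptor Myd88, and the cytosolic receptors Nod1 and Nod2. They were taken by name, through their Ensembl identifiers, from a table of 55414 identifiers, and all 10 were found. The table held 6 libraries, 3 from PBS-injected and 3 from TNF-injected mice. The labels number the replicates and do not say whether each came from a separate animal, so p-values measure the spread between these samples. All animals were C57BL/6J mice with the genotype IFNAR1 KO, so the PBS controls carried the knockout too and no wild-type library was used. PCs had been purified from the small intestine with a cell sorter 15 h after injection. The sources used here give no age, sex or TNF dose.

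Toll-like receptors (TLRs) bind conserved microbial molecules at the cell surface or in endosomes. TLR2, paired with TLR1 or TLR6, binds bacterial lipopeptides, TLR4 with MD-2 binds lipopolysaccharide handed over by CD14, TLR5 binds flagellin and TLR3 binds double-stranded RNA. All of these except TLR3 signal through MYD88 to NF-kB, whereas TLR3 uses the adaptor TRIF, encoded by Ticam1. NOD1 and NOD2 lie in the cytosol, bind fragments of bacterial peptidoglycan and signal through the kinase RIPK2, and NOD2 is known for its expression in PCs and for its link to Crohn's disease.

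Promoter sequences were looked up, because NF-kB and interferon-regulatory factors (IRFs) are the classic regulators of such genes. RefSeq entries on GRCm38.p6 covered 7 of the 10 members with 9 promoters, and Tlr4, Ly96 and Cd14 had no entry. The 250 bases before each start were searched on both strands for GGGANNTTC (a form of the NF-kB site) and GAAANNGAA (a form of the IRF site), which do not overlap each other in any of these promoters. The NF-kB letters were in 3 of the 9 promoters (Tlr2, Tlr3 and 1 of Nod1) and in 3.23% of all 32851 promoters. A longer NF-kB form, with 1 more C at its end, had been searched before this one and was in 1 of the 9 (Tlr3) and in 1.21% of all, so the count depends on the form chosen. The IRF letters were in 1 of the 9 (Myd88) and in 7.13% of all, and in the same 1 with 1 more A at their end, against 2.98%. The promoters of Tlr3 and Myd88 are shown for the matches that held in both forms, with the NF-kB or IRF letters in capitals, and that of Tlr5 as an example without either, as the 1 TLR of the 10 genes whose mean was lower in TNF. Each is read 5′ to 3′ towards the start of its gene.
Tlr3 (chr8:45410381-45410630, minus strand): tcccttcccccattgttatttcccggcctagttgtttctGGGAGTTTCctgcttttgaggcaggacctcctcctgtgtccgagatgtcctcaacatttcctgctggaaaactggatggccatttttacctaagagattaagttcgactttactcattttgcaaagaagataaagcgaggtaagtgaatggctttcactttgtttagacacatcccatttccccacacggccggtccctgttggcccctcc
Myd88 (chr9:119340019-119340268, minus strand): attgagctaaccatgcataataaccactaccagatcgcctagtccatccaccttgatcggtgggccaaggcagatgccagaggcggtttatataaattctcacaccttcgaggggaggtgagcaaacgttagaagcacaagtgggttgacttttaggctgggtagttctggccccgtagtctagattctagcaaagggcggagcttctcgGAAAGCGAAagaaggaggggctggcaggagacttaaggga
Tlr5 (chr1:182954538-182954787, plus strand): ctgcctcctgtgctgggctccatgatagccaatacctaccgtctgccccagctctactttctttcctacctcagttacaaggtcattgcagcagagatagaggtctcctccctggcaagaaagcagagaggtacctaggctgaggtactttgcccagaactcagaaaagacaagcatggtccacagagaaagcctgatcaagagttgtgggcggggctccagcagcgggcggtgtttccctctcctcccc
The NF-kB letters in Tlr3 lay 211 to 203 bases before the start, and the IRF letters in Myd88 lay 40 to 32 bases before it. Tlr5 matched neither search in this window, nor did Nod2 or either promoter of Tlr1. Whether matches go with the fold changes was not tested. These matches are letters only and say nothing of binding.

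The libraries were compared with one another before the genes. Total counts ran from 12747484 to 17039511, and values are CPM (counts scaled to library sizes adjusted by TMM, the trimmed mean of M-values). A count of 0 allowed up to 0.146 to 0.255 CPM, taking 3 counts as the limit, which covers counting error only. TNF replicate 1 stood apart from its group: over the 13026 tested genes its log2 CPM correlated with the PBS libraries at 0.937 to 0.945 and with TNF replicates 2 and 3 at 0.883 and 0.884, while those correlated with each other at 0.954 (across genes, which are not independent replicates). It was kept as labelled, and results without it stand beside those with it. Y-linked transcripts were counted in PBS replicate 3 (846 counts over 4 genes) and TNF replicate 3 (669) and reached at most 2 counts elsewhere. Ifnar1 was counted at 5.19 to 9.53 CPM in PBS, and 5.18 to 12.7 CPM in TNF, which checks nothing about the knockout without a wild-type library. The PC label fitted its markers, since all 15 fixed PC markers, led by Lyz1, were counted in every library, at a summed 368366 to 454936 CPM in PBS, and 278345 to 583292 CPM in TNF.

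All 10 genes were expressed at low levels, and their order was read only per length, as CPM per kilobase (kb) of merged exons. In PBS, Myd88 was first at 3.52 ± 0.441 CPM per kb (SD, n = 3), followed by Cd14 at 2.23 ± 1.23, Ly96 at 1.97 ± 0.930, Tlr3 at 1.92 ± 0.141 and Nod1 at 1.69 ± 0.255. The other 5 formed a lower tier, with Tlr5 at 0.567 ± 0.151, Tlr2 at 0.367 ± 0.102, Nod2 at 0.309 ± 0.081, Tlr1 at 0.0946 ± 0.0892 and Tlr4 at 0.0850 ± 0.053. The step from Nod1 down to Tlr5 exceeded its spread (difference 1.13 ± 0.364 CPM per kb within libraries). Of the 9 neighbouring pairs in this order, 5 differed by more than 1 SD of their within-library difference, and Cd14 and Ly96, Ly96 and Tlr3, Tlr5 and Tlr2, and Tlr1 and Tlr4 did not. Per-length values assume that reads covered whole transcripts, which the sources used here do not state.

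In the TNF libraries the order was different, although Tlr4 had the lowest mean in both groups. Ly96 was first at 11.1 ± 6.73 CPM per kb, ahead of Myd88 at 6.24 ± 3.24, Cd14 at 4.67 ± 2.05 and Tlr3 at 3.32 ± 1.71. Tlr1 had 1.37 ± 0.930 CPM per kb, beside Nod1 at 1.51 ± 0.455 and Tlr2 at 1.07 ± 0.356. Nod2 at 0.412 ± 0.283, Tlr5 at 0.346 ± 0.149 and Tlr4 at 0.344 ± 0.165 were lowest. Here 4 of the 9 neighbouring pairs differed beyond 1 SD. Myd88 and Cd14, Nod1 and Tlr1, Tlr1 and Tlr2, Nod2 and Tlr5, and Tlr5 and Tlr4 did not. Tlr5, Nod2 and Tlr4 could thus not be ordered.

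**Figure D1:**
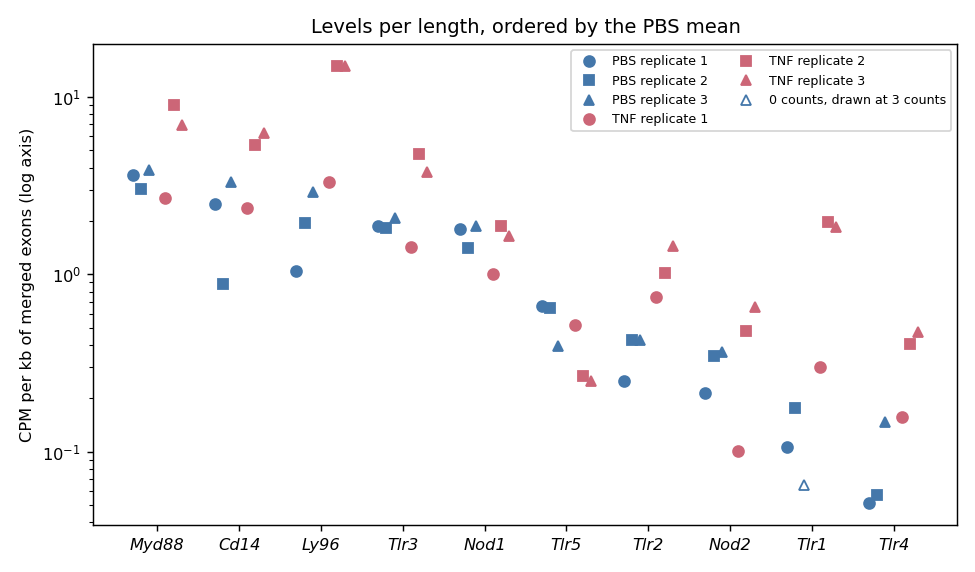
Level of each gene per length (CPM per kb of merged exons, log axis) in every library, with genes ordered by their PBS mean; colours mark the groups, shapes the replicates, and the open triangle a library at 0 counts drawn at 3 counts. Ly96 moves from 1.97 CPM per kb in PBS to 11.1 in TNF, and Tlr1 from 0.0946 to 1.37. TNF replicate 1 lies outside the range of the PBS libraries for 8 of the 10 genes, 4 above and 4 below. The share of all tested genes outside that range was not counted.

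The genes were then compared between TNF and PBS, which asks how the sensing repertoire of PCs differs 15 h after TNF. Adjusted p-values below are from edgeR's quasi-likelihood test over all tested genes, a pass is an adjusted p under 0.05, and in bulk samples a lower share of expressing cells and less RNA per cell cannot be told apart. Over all 6 libraries 0 of the 10 genes passed, as did 0% of the 13026 genes tested, with 4 of the 10 at an unadjusted p under 0.05 (Ly96, Tlr1, Tlr2 and Tlr4, all higher, against 8.25% of all tested genes) and 0 lower (against 4%). Limma-voom also passed 0 of the 10. DESeq2 passed 2 (Ly96 and Tlr1, both higher, against 1.43% of genes higher and 0.284% lower), as did edgeR with no filter on low counts (the same 2, against 2.1% and 0.849%), and limma-voom with sample weights passed 4 (Ly96, Tlr1, Tlr2 and Myd88, all higher, against 7.06% and 4.47%). Without TNF replicate 1, 6 of the 10 passed, all higher in TNF, against 9.1% of 13660 genes, and 0 passed as lower, against 5.4%. Those 6 were Ly96, Tlr1, Tlr2, Tlr4, Tlr3 and Myd88. That fit rests on TNF replicates 2 and 3 alone and leaves out a library singled out in these same data for resembling PBS. Such a choice favours differences, and leaving out any other library passed 0 of the 10. Tlr1 passed the filter on low counts only through its TNF libraries, and Tlr4 reached its limit in 1 PBS and 3 TNF libraries, so both were kept through the group where they were high.

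The lipopolysaccharide receptor genes are described first. Ly96 (ENSMUSG00000025779, GRCm39 chr1:16758275-16779961) had 1.30, 2.40 and 3.59 CPM in PBS against 4.07, 18.5 and 18.5 CPM in TNF, always given in the order of replicates 1 to 3. Every TNF library was thus above every PBS library, but TNF replicate 1 lay just above the highest PBS value while the other two were far above it. The log2 fold change was 2.50 (SE 0.59, adjusted p 0.270, n = 3 per group), a 5.64-fold difference. Without TNF replicate 1 it was 2.94 (SE 0.37, adjusted p 4.56e-04, in a range of 4.90e-07 to 0.897 over 15 alternatives).

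Tlr4 (ENSMUSG00000039005, chr4:66745783-66849936), the signalling chain of this receptor, was counted 5, 6 and 14 times in PBS and 13, 58 and 41 times in TNF, or 0.360, 0.400 and 1.03 CPM against 1.10, 2.83 and 3.30 CPM. The groups did not overlap, although PBS replicate 3 (14 reads) and TNF replicate 1 (13 reads) were apart only after scaling. Its log2 fold change was 2.01 (SE 0.72, adjusted p 0.331) over all libraries and 2.37 (SE 0.72, adjusted p 0.0497, range 0.0497 to 0.919 over 14 alternatives) without TNF replicate 1, so its pass was at the threshold. The ratio of Ly96 to Tlr4 counts was 3.60, 6.00 and 3.50 in PBS and 3.69, 6.53 and 5.61 in TNF, with overlapping groups.

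Cd14, which delivers lipopolysaccharide to this complex, had 4.32, 1.53 and 5.72 CPM in PBS against 4.07, 9.32 and 10.9 CPM in TNF. TNF replicate 1 lay inside the PBS range and the other two above it. The log2 fold change of 1.07 (SE 0.53, adjusted p 0.443) became 1.41 without TNF replicate 1 and still did not pass (adjusted p 0.0636, range 0.0636 to 0.922).

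The lipopeptide receptors Tlr1 and Tlr2 were higher in every TNF library than in any PBS library. Tlr1 (ENSMUSG00000044827, chr5:65082022-65090941) had counts of 5, 9 and 0 in PBS and 12, 136 and 78 in TNF, or 0.360, 0.599 and 0 CPM against 1.02, 6.64 and 6.27 CPM, where the 0 in PBS replicate 3 allows up to 0.220 CPM. This was the largest log2 fold change of the 10, at 3.81 (SE 1.01, adjusted p 0.274), and 4.30 (SE 0.77, adjusted p 0.00394, range 7.13e-05 to 0.897) without TNF replicate 1. Tlr6, the neighbouring paralog of Tlr1, had at most 6 counts in any library and 0 in all TNF libraries, though how reads shared between such copies were assigned is not given in the sources used here.

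Tlr2 (ENSMUSG00000027995, chr3:83743576-83749074), the common partner chain, had 1.37, 2.33 and 2.35 CPM in PBS against 4.07, 5.56 and 7.96 CPM in TNF. All TNF libraries were above all PBS libraries, and TNF replicate 1 was at 2.02 times the PBS mean. The log2 fold change was 1.54 (SE 0.44, adjusted p 0.278) and, without TNF replicate 1, 1.76 (SE 0.44, adjusted p 0.0206, range 0.0206 to 0.897).

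Tlr3 (ENSMUSG00000031639, chr8:45848702-45864117), the endosomal receptor for double-stranded RNA whose promoter is shown above, had 10.01, 9.72 and 11.1 CPM in PBS against 7.64, 25.5 and 20.1 CPM in TNF. The PBS libraries lay close together, TNF replicate 1 fell below all of them and TNF replicates 2 and 3 above all of them. Its log2 fold change was 0.79 (SE 0.39, adjusted p 0.443) with all libraries and 1.17 (SE 0.23, adjusted p 0.00590, range 0.00590 to 0.920) without TNF replicate 1.

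Myd88 (ENSMUSG00000032508, chr9:119165000-119170486), the adaptor of the other 4 TLRs, followed the same arrangement, with 14.2, 11.8 and 15.1 CPM in PBS against 10.4, 35.1 and 27.2 CPM in TNF. Here too TNF replicate 1 was the lowest of the 6 libraries. The log2 fold change was 0.83 (SE 0.39, adjusted p 0.429), and 1.21 (SE 0.22, adjusted p 0.00434, range 0.00434 to 0.920) without TNF replicate 1. Myd88 shares 628 of its 3888 exon bases (16.2%) with Acaa1a on the opposite strand, and whether the counting used strand is not given. Acaa1a had 28.5, 25.3 and 25.2 CPM in PBS against 32.8, 41.9 and 39.1 CPM in TNF, with TNF replicate 1 above the PBS libraries where Myd88 was below them, and its part in the Myd88 values was not tested.

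Tlr5 (ENSMUSG00000079164, chr1:182782311-182805500), the flagellin receptor, was the 1 TLR of the 10 genes with a lower mean in TNF. It had 4.47, 4.33 and 2.64 CPM in PBS against 3.48, 1.81 and 1.69 CPM in TNF, so that TNF replicates 2 and 3 were below every PBS library and TNF replicate 1 was within the PBS range. The log2 fold change of -0.72 (SE 0.48, adjusted p 0.574) became -1.10 without TNF replicate 1 (SE 0.50, adjusted p 0.179, range 0.179 to 0.943) and passed in none of the 14 alternatives that tested it.

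**Figure D2:**
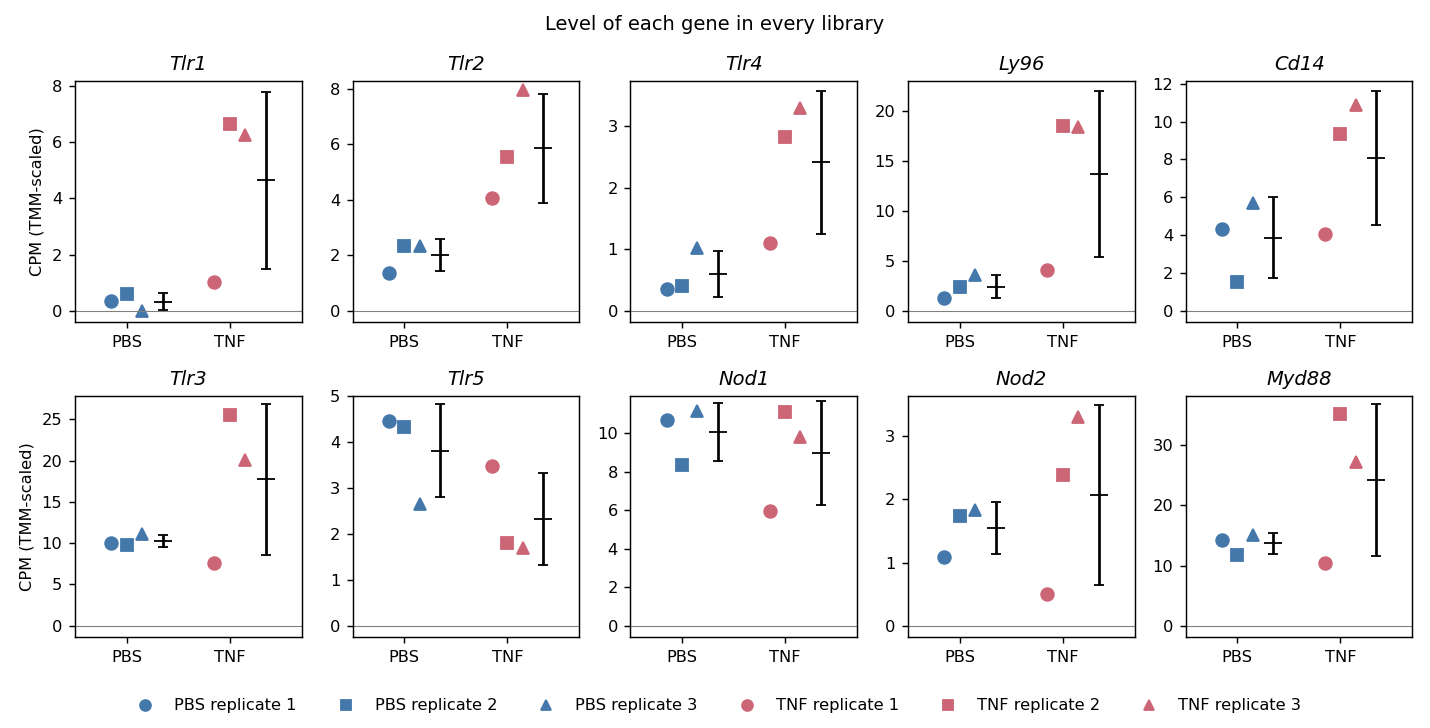
Level of each of the 10 genes (TMM-scaled CPM, linear axes of different height) in every library, with colours for groups and shapes for replicates; black bars give the mean ± SD of 3 libraries. TNF replicates 2 and 3 lie above all PBS libraries for 8 genes and below them for Tlr5, whereas TNF replicate 1 is the lowest library for Tlr3, Myd88, Nod1 and Nod2. The shares of all tested genes in these positions were not counted.

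The cytosolic receptors had the smallest log2 fold changes of the 10 genes in size, whatever the sign. Nod1 (ENSMUSG00000038058, chr6:54900927-54949647) had 10.7, 8.32 and 11.1 CPM in PBS against 5.94, 11.1 and 9.81 CPM in TNF. Its log2 fold change was -0.16 (SE 0.31, adjusted p 0.861) with all libraries and 0.08 (SE 0.26, adjusted p 0.878, range 0.798 to 0.976) without TNF replicate 1, so that its sign rested on that library. Its values in TNF replicates 2 and 3 lay within the PBS range.

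Nod2 (ENSMUSG00000055994, chr8:89373943-89415102) was sparse, with 15, 26 and 25 counts in PBS and 6, 49 and 41 counts in TNF. On the CPM scale these were 1.08, 1.73 and 1.83 against 0.509, 2.39 and 3.30, with TNF replicate 1 below and the other two above the PBS libraries. The log2 fold change of 0.42 (SE 0.70, adjusted p 0.842) was smaller than its error, and was 0.89 (SE 0.58, adjusted p 0.355, range 0.355 to 0.996) without TNF replicate 1. It turned to -0.06 without TNF replicate 3.

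Taking each TNF library against the PBS mean, the 10 genes had a median log2 ratio of -0.03 in TNF replicate 1, with 4 above every PBS library (Ly96, Tlr1, Tlr2 and Tlr4) and 4 below every PBS library (Tlr3, Myd88, Nod1 and Nod2). In TNF replicates 2 and 3 the medians were 1.33 and 1.29, while those over all tested genes were -0.02 and -0.03. Of the 10, 8 were above every PBS library in both of these, and 1 (Tlr5) was below every PBS library. How many of all tested genes lay so in TNF replicate 1, or in TNF replicates 2 and 3, was not counted. These member counts therefore have no share of all genes to be set against and are a description only. Over all 6 libraries the groups did not overlap for 4 genes, all higher (Tlr1, Tlr2, Tlr4 and Ly96), against 9.07% of tested genes, and for 0 lower, against 7.82%. The median log2 fold change of the 10 was 0.95, beside -5.9e-04 over all tested genes. Tlr1 and Tlr4 entered the test through the TNF libraries in which they were high, so neither adds support to that count or median.

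**Figure D3:**
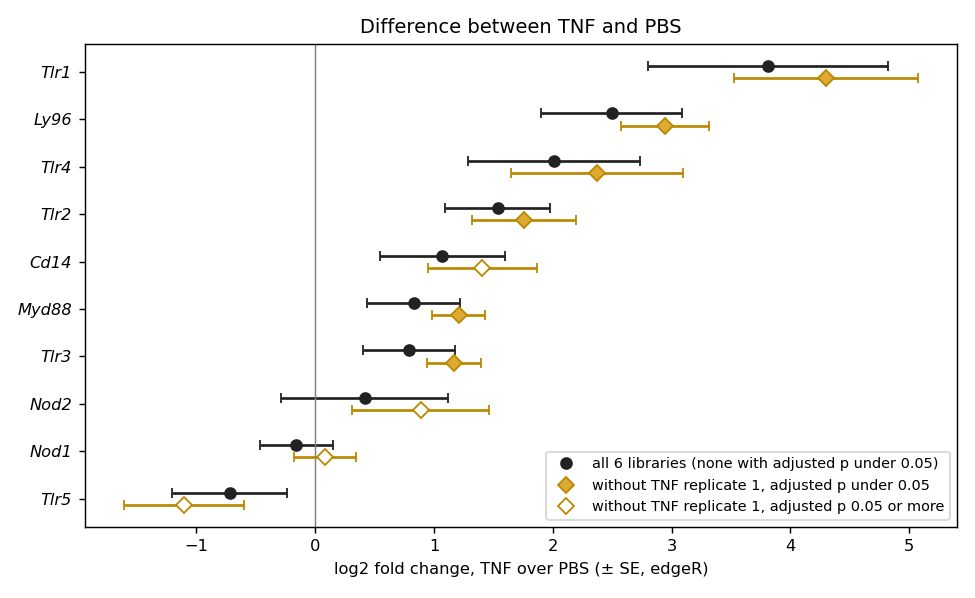
Log2 fold change of each gene, TNF over PBS, with its SE from edgeR, over all 6 libraries (black circles) and without TNF replicate 1 (diamonds, filled where the adjusted p was under 0.05). Fold changes run from -0.72 (Tlr5) to 3.81 (Tlr1) with all libraries, and 6 genes pass when TNF replicate 1 is left out.

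The rest of the sensing pathway was read from 5 lists holding 77 further genes, of which 60 were tested with all libraries. Of these, 0 passed with edgeR, 7 higher and 2 lower genes had an unadjusted p under 0.05 (8.25% and 4% of all tested genes did), and the median log2 fold change was 0.13. Without TNF replicate 1, 16 of 62 passed as higher, Lbp among them, and 3 as lower. In that fit 9.1% of all tested genes passed as higher and 5.4% as lower, which are the shares to set beside each list count below.

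Among other TLRs, Tlr8, Tlr11 and Tlr12 had 0 counts in every library, and 4 of the 14 genes of this list were tested with all libraries. Hsp90b1, the chaperone (GRP94) that folds most TLRs, had 416, 306 and 335 CPM in PBS against 239, 219 and 143 CPM in TNF. It was the gene of this list with the smallest p, at a log2 fold change of -0.82 (SE 0.27, adjusted p 0.311), and its groups did not overlap, TNF replicate 1 included. It passed as lower without TNF replicate 1. Cnpy3, its co-chaperone, was also lower in every TNF library (log2 fold change -0.43, adjusted p 0.477), whereas Unc93b1, which carries endosomal TLRs, had a log2 fold change of 0.03 (adjusted p 0.964) and Tlr9 one of 1.22 (adjusted p 0.760). Lbp, the gene of the protein that extracts lipopolysaccharide for CD14, had 0.504, 0 and 0.660 CPM in PBS against 0.170, 16.3 and 12.5 CPM in TNF. It had enough counts in only 2 libraries, so it was not tested with all 6. It passed without TNF replicate 1, where it entered the test only through the TNF libraries in which it was high, and it is named here after its values were seen.

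Adaptors and kinases below the TLRs had 0 of 18 tested genes passing with all libraries and 4 of 19 (Traf3, Ikbkb, Ikbke and Irf7, all higher, against 9.1% of all tested genes) without TNF replicate 1. Ikbkg, the scaffold of the IKK complex, had the smallest p with all libraries (16.4, 19.6 and 14.8 CPM against 19.8, 27.1 and 26.4 CPM, log2 fold change 0.53, adjusted p 0.400). The kinases Chuk (-0.39, adjusted p 0.436) and Irak1 (-0.46, adjusted p 0.448) had negative log2 fold changes, and Traf3 a positive one (0.61, adjusted p 0.451). Irak1, Irf3 and Chuk were this list's most abundant genes per length, at 10.5, 7.37 and 6.86 CPM per kb over the 6 libraries. Each was above all 10 sensing genes in this mean, but in TNF Ly96 (11.1) was above each of them (8.80, 7.02 and 5.95). With the longest transcript as the length, Chuk (10.4) would lie below Ly96 (10.6) in the mean over the 6 libraries.

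On the NOD side, Ripk2, the kinase that both NOD receptors use, had 2.52, 1.60 and 1.76 CPM in PBS against 2.89, 5.91 and 6.83 CPM in TNF without overlap (log2 fold change 1.41, SE 0.47, adjusted p 0.311). Birc3, a ubiquitin ligase of the same complex, had 9.0, 15.5 and 11.9 CPM in PBS against 12.5, 42.5 and 45.1 CPM in TNF (1.46, SE 0.44, adjusted p 0.293). Both passed without TNF replicate 1, unlike Nod1 and Nod2 themselves. The peptide transporters Slc15a1 (-2.58, adjusted p 0.349) and Slc46a3 (-0.997, adjusted p 0.465) had negative log2 fold changes, and Slc46a3 passed as lower without TNF replicate 1. Slc15a1 rested on few reads, with 12, 33 and 12 counts in PBS against 0, 6 and 4 counts in TNF. It passed the filter on low counts only through its PBS libraries, the group where it was high. Tab2, Xiap and Birc2, the most abundant of this list at 5.66, 4.16 and 3.76 CPM per kb, had log2 fold changes of -0.21, 0.23 and -0.17 and did not pass in either fit.

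Genes that restrain receptor signalling had 0 of 11 tested genes passing with all libraries and 3 (Tnfaip3, Nfkbia and Tollip, all higher, against 9.1% of all tested genes) without TNF replicate 1. Tnfaip3, which encodes the deubiquitinase A20, had 8.21, 7.59 and 8.87 CPM in PBS against 9.08, 26.3 and 31.8 CPM in TNF, so that TNF replicate 1 was just above the PBS libraries (log2 fold change 1.45, SE 0.41, adjusted p 0.278). Nfkbia, the NF-kB inhibitor, had a log2 fold change of 0.83 (adjusted p 0.368), and Irak3 and Tollip had 0.42 (adjusted p 0.490) and 0.41 (adjusted p 0.661). Usp4 was among the 3 most abundant genes of the list beside Nfkbia and Tollip, and had a log2 fold change of -0.07.

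Cytosolic nucleic acid and inflammasome sensors included Sting1, which had the largest log2 fold change of the 60 pathway genes tested with all libraries. Sting1, the adaptor for cyclic dinucleotides, had 11.1, 7.66 and 6.16 CPM in PBS against 6.62, 112 and 70.7 CPM in TNF, with TNF replicate 1 inside the PBS range (log2 fold change 2.93, SE 0.77, adjusted p 0.274). Aim2 (1.80, adjusted p 0.326), Naip1 (0.85, adjusted p 0.429) and Zbp1 (0.80, adjusted p 0.500) followed by p, and Naip1 is uncertain because its near-identical copies can share reads. Nlrc4 and Pycard, the most abundant of the list per length at 17.7 and 13.1 CPM per kb, had log2 fold changes of 0.01 and 0.35. Without TNF replicate 1, 6 of 18 tested genes passed as higher (Rigi, Ifih1, Dhx58, Sting1, Zbp1 and Aim2, against 9.1% of all tested genes) and 1, Nlrp6, as lower (against 5.4%).

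**Figure D4:**
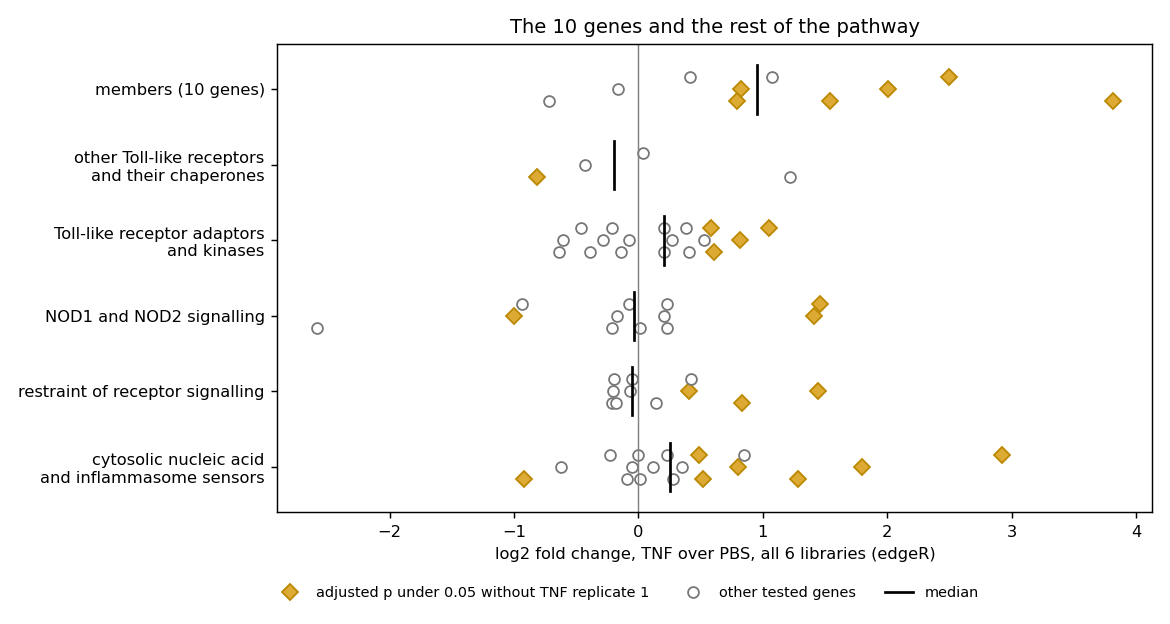
Log2 fold change, TNF over PBS, of the 10 genes and of the tested genes of the 5 pathway lists over all 6 libraries (edgeR), 1 symbol per gene, with black lines at the medians and filled diamonds for genes with an adjusted p under 0.05 when TNF replicate 1 was left out. The median was 0.95 for the 10 genes and lay between -0.20 and 0.25 for the 5 lists, some of which share genes. The 10 include Tlr1 and Tlr4, which entered the test through their TNF libraries and add no support to that median. The members and lists were chosen with earlier results of these data known.

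Leukocytes express many of these sensors, so markers of other cells were read in the same libraries. Of 16 macrophage and monocyte markers, 6 (Cd163, C1qc, Cx3cr1, Fcgr1, Ly6c2 and Ccr2) had 0 counts in all libraries, and Csf1r had at most 4. The list summed to 2.09 to 3.52 CPM in PBS, and to 2.04, 4.59 and 5.06 CPM in TNF replicates 1 to 3. The part of this list in the sensor values was not tested. Cd68 was its most abundant gene at a mean of 1.06 CPM, and Mrc1 was counted 35 times in each of TNF replicates 2 and 3 and at most 10 times elsewhere.

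Of 8 neutrophil markers, 5 (Mpo, Elane, Csf3r, Cxcr2 and Retnlg) had 0 counts in all libraries. The list had 0 counts in PBS and in TNF replicate 1, and summed to 2.68 and 1.37 CPM in TNF replicates 2 and 3, mainly from S100a9 (26 and 13 counts) and from Ly6g (27 counts in TNF replicate 2 only). These small amounts moved with the higher sensor values, and their part in them was not tested. Without TNF replicate 1, the 1 neutrophil marker tested passed as higher, against 9.1% of all tested genes. It entered that test only through the TNF libraries, as the list had 0 counts in PBS. In the same fit 0 of 3 tested macrophage and monocyte markers passed.

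Of 11 lymphocyte and pan-leukocyte markers, 6 (among them Cd3g, Cd8a, Cd4, Nkg7 and Jchain) were at 0, and the list summed to 4.18 to 33.9 CPM in PBS, and 9.24 to 22.9 CPM in TNF, nearly all from Ptprc, which tuft cells also express. Endothelial and stromal markers summed to at most 2.86 CPM, led by Pdgfrb, with 4 of 9 (Cdh5, Kdr, Dcn and Lum) at 0. Tuft cell markers, led by Trpm5, summed to 435 to 1522 CPM in PBS, and 544 to 1031 CPM in TNF, and enteroendocrine markers, led by Chgb, to 56.9 to 193 CPM and 47.3 to 144 CPM, so both overlapped between groups. Without TNF replicate 1, 0 of 9 tuft markers passed. Of 10 enteroendocrine markers 1 passed as higher and 1 as lower, against 9.1% and 5.4% of all tested genes.

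Markers of enterocytes, stem cells and goblet cells were lower in part in TNF replicates 2 and 3, and without TNF replicate 1 edgeR passed 7 of 11, 4 of 9 and 5 of 9 tested markers as lower and 0 as higher, against 5.4% and 9.1% of all tested genes. Enterocyte markers, led by Anpep, summed to 321 to 368 CPM in PBS and to 272, 122 and 91.1 CPM in TNF replicates 1 to 3. Stem cell markers, led by Olfm4, summed to 2702 to 3294 CPM in PBS and to 4856, 1006 and 885 CPM in TNF. Most of that difference was Olfm4, and without it the other 8 summed to 923, 838 and 781 CPM in PBS against 974, 774 and 613 CPM in TNF. Goblet cell markers, led by Agr2, summed to 4994 to 5318 CPM in PBS, and 4212 to 5065 CPM in TNF, but this sum, mostly Agr2, Muc2 and Tff3, hid members that went either way. Zg16 had 51.8, 42.8 and 44.2 CPM in PBS against 49.0, 4.20 and 8.76 CPM in TNF, and Fcgbp 463, 339 and 557 CPM against 376, 88.2 and 148 CPM. Atoh1 had 127, 76.3 and 77.6 CPM in PBS against 95.1, 166 and 155 CPM in TNF, so TNF replicates 2 and 3 were above every PBS library. Muc2 had 1479, 1856 and 1108 CPM in PBS against 887, 2574 and 1437 CPM in TNF. Of the 15 PC markers, 3 passed as lower and 1 as higher without TNF replicate 1, against 5.4% and 9.1% of all tested genes. The part of such shifts in the sensor values was not tested.

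Genes with the most similar pattern were sought for members with a high mean level per length, by Pearson correlation of log2 CPM over the 6 libraries, as a description. Ly96 was closest to Mrpl22, Icam1 and Ufd1 (0.998, 0.997 and 0.995), and Cd14 to Tbc1d7, Mob1a and Lyar (0.990, 0.989 and 0.989). Such values were common, since 621 and 199 of 13025 genes reached 0.9 with Ly96 and Cd14, and the points share the contrast of TNF replicates 2 and 3 with the other 4 libraries.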

How the data were processed

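RNA from 6 samples of sorted PCs was sequenced with single-end reads. Per the labels, the deposited table holds raw counts per Ensembl gene, and the submitters' processing notes name FastQC, Trimmomatic 0.39, STAR 2.7.10a, DESeq2 and build mm39. Sources used here do not name the counting tool, annotation release or use of strand. Symbols, exons and overlaps came from GENCODE for GRCm39 by Ensembl identifier (54749 of 55414 matched; the others held 0.0193% of counts).

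Genes were filtered with filterByExpr (minimum count 10, minimum total 15), scaled by TMM and tested two-sided with edgeR 4.0.16 in R 4.3.3 (quasi-likelihood, group as the only term, Benjamini-Hochberg adjustment over all tested genes). Each SE was derived from the log2 fold change and its F statistic. All 10 members passed the filter; Tlr1 reached its limit of 0.713 CPM in 0 PBS libraries and Tlr4 in 1. The code was tested on simulated data. Alternatives were other scalings and filters, DESeq2 1.42.0 on the genes kept by the filter, limma-voom (limma 3.58.1) with and without sample weights, the replicate number as a block, and leaving out each library. Promoter motifs were first searched in forms 1 letter longer; the shorter forms of the NF-kB and IRF sites replaced them after those results were seen, so that their letters could be printed, and both results are given. A further motif search, the genes most similar to Myd88 and 1 marker gene's name are not reported here. The members and lists were chosen with earlier results of these data known. Named from each pathway list were up to 4 genes with the smallest p and up to 3 with the highest level per length, besides genes that passed without TNF replicate 1, which were named after their values were seen.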

Additional observations from a re-analysis of the deposited data

How the results depend on the processing

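With edgeR and all libraries 0 genes passed, and 1596 had an unadjusted p under 0.05. Genes past the adjusted threshold numbered 690 with no low-count filter, 223 with DESeq2 and 1501 with sample weights, and 0 to 1980 when 1 library was left out, the highest without TNF replicate 1. For the 10 members the counts were 2 with no filter (Ly96 and Tlr1), 2 with DESeq2 (the same 2 names) and 4 with sample weights (Ly96, Tlr1, Tlr2 and Myd88), and 0 to 6 when 1 library was left out. The 60 tested pathway genes gave 0, and the counts were 6 with no filter, 10 with sample weights and 0 to 19 when 1 library was left out. Relative log expression factors, library size alone, TMM without genes above 1% of counts, a mean CPM of at least 5 and limma-voom left all 3 counts at 0. The mean CPM filter dropped 5 members. Library size alone moved the median log2 fold change of all genes to -0.11 and reversed no member. Of 145 fold changes of members under alternatives, 2 reversed and 14 passed the threshold. When 1 library was left out, the log2 fold change of Nod1 ran from -0.38 to 0.082 (reversed without TNF replicate 1) and that of Nod2 from -0.060 (reversed without TNF replicate 3) to 0.89. For the mean over all 6 libraries, the order of the 10 levels was the same with the longest transcript, with all 10 places kept. The separate orders in PBS and in TNF depend on the length used. In PBS, Ly96 (758 bases against 1236 of merged exons) would then lie above Cd14 (1641 against 1732). No source links libraries of the same number, although Y-linked counts were found in replicate 3 of both groups. Same-numbered PBS and TNF libraries deviated from their group means with correlations of -0.01, -0.07 and 0.03, and with the replicate number as a block 0 genes, 0 members and 0 pathway genes passed, with 1395 genes at an unadjusted p under 0.05. At these depths Tlr1, Tlr4 and Nod2 rest on few reads. The cause of these dependences was not tested.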

Other observations

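The 10 genes also differed in the part each took of their summed CPM, which ran from 43.2 to 54.6 CPM across PBS libraries, with 42.3, 119 and 109 CPM for TNF replicates 1 to 3. Myd88 took 27.3% to 29.5% of this sum in PBS and 24.6%, 29.6% and 24.9% in TNF replicates 1 to 3. Ly96 took 2.69% to 6.59% in PBS and 9.62%, 15.6% and 17.0% in TNF. Nod1 took 19.3% to 22.2% in PBS and 14.0%, 9.37% and 9.0% in TNF. These shares were not tested, since they were chosen after the values were seen. TNF replicate 1 lay outside the PBS range in the direction of the other TNF libraries for the shares of Ly96 and Nod1, although its summed level did not.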
